A study of Mus musculus with 8 samples.

Results

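The genes described are splicing factors and heterogeneous nuclear ribonucleoproteins (hnRNPs), measured in refed mouse liver with and without a hepatic deletion of Rictor. Members were taken by gene symbol: those starting with Srsf, Hnrnp, Snrp, Sf3a, Sf3b or Prpf, plus Phf5a, Pabpn1, Alyref, U2af1 and U2af2. The rule found 63 genes among the 19938 genes of the array that had a probe set with 1 gene symbol. All 63 entered the fit, since no filter on low values was used. By family they were 10 Srsf, 17 Hnrnp, 10 Snrp, 9 Sf3a or Sf3b and 12 Prpf genes, and the 5 taken singly. Hnrnpa1, Hnrnpa1l2-ps2, Hnrnpa3, Hnrnph3, Snrpf, Snrpn and Srsf7 were not analysed here.

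Total RNA came from the livers of 8 adult male mice, with 1 array (Affymetrix Mouse Gene 1.0 ST) for each. The RKO group held 4 mice labelled Rictor floxed, from the Albumin-Cre Rictor LoxP/LoxP line. In this line the albumin promoter drives Cre in hepatocytes, and liver cells without active Cre keep the gene. The WT group held 4 control mice labelled wild type, and the text on them does not say whether they carried Cre or floxed alleles. Every mouse, controls included, had been fasted for 16 h and then had free access to food for 3 h. The product of Rictor is needed for mTOR complex 2, a kinase complex that phosphorylates Akt, and the comparison asks how liver transcripts depend on it in the refed state.

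Splicing removes introns from pre-mRNA in a spliceosome built from small nuclear ribonucleoproteins (snRNPs), each made of a small RNA, a ring of Sm proteins and specific proteins. SR proteins mostly bind exons and favour their use, hnRNPs bind nascent RNA and often oppose it, and the SF3a, SF3b and U2AF proteins help the U2 snRNP to settle on the branch point. SR proteins are controlled by kinases of the Srpk and Clk families, and in cultured cells Srpk kinases are known to act downstream of Akt and of mTOR complex 1. In liver, splicing factors are expressed in all cell types.

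Values are expression values taken as log2. Differences are RKO minus WT on that scale, with standard errors (SE) from the limma fit and n = 4 per group, and a value of -1 would be a halving. Phf5a, Pabpn1 and Alyref were chosen by their low values on the RKO arrays in this same contrast, and the families were chosen with its results known. The differences below are therefore descriptions, and the direction of those 3 genes is no finding.

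The array labelled RKO 1 stood apart from the other RKO arrays. On the first principal component over all probe sets, which held 26.6% of the variance, it lay at -25.2, with RKO 2 to 4 between 21.4 and 31.1 and the WT arrays between -19.1 and -6.21. Its mean correlation was 0.988 with the other RKO arrays and 0.991 with the WT arrays. WT 1, with -6.21, was the WT array nearest to 0, and results are given with and without both arrays numbered 1 where these matter. Rictor itself read 9.45 ± 0.22 on the RKO arrays and 9.40 ± 0.19 on the WT arrays (SD, n = 4). By array it read 9.15, 9.51, 9.68 and 9.47 on RKO 1 to 4, against 9.47, 9.28, 9.23 and 9.64 on WT 1 to 4. RKO 1 thus had the lowest Rictor value of all 8 arrays. The exons that its probe set covers were not examined, and undeleted exons or other cells could still give signal, so this reading does not check the labels. Of 6 hepatocyte markers 5 were measured, all between 13.4 and 14.2 on every array. Summed levels of 7 marker lists of other liver cell types overlapped between the groups in every list, and 0 of their 34 measured genes passed. Lymphocyte markers were lower in 5 of 5 measured genes (median -0.13). Their summed levels (back-transformed) were 422 to 503 on the RKO arrays and 461 to 562 on the WT arrays. Single values of these genes were low, from 4.68 to 7.66 in log2. Kupffer cell and macrophage markers were higher in 6 genes and lower in 1. Cholangiocyte markers were higher in 2 and lower in 2 (median -0.21), and the 1 measured erythroid gene differed by -0.36. The other lists had genes of both signs. The part of any of these cell types in the differences below was not tested.

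No member passed the test. After Benjamini-Hochberg adjustment over 21789 probe sets, limma called 0 of 63 members at 0.05, and the background share was 0.0% in each direction, 0 of 19938 genes. Adjusted p-values of the 60 members other than Phf5a, Pabpn1 and Alyref lay between 0.192 and 0.977. Without adjustment, 7 members were higher and 7 lower at p under 0.05, against 3.84% higher and 6.61% lower over all genes. The rule used this contrast, so nothing is read from these shares.

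The family medians did not all have 1 sign. Over all 63 members the median difference was 0.034, and 0.046 without Phf5a, Pabpn1 and Alyref, beside -0.020 over all genes. Members were higher in 36 cases and lower in 27, while 43.1% of all genes were higher and most were lower. Of the hnRNP genes 14 of 17 had a higher mean on the RKO arrays (median 0.11), and of the Srsf genes 7 of 10 (median 0.098). Of the SF3a and SF3b genes 7 of 9 had a lower mean (median -0.091). Of the Snrp genes 5 of 10 were higher (median -0.0074), and of the Prpf genes 7 of 12 (median 0.043). In the 15 alternative fits the medians kept their sign for the hnRNP, Srsf and SF3 families, with ranges from 0.058 to 0.22, from 0.057 to 0.15 and from -0.19 to -0.047, while those of the Snrp and Prpf families crossed 0. The fits without a trend and with the replicate number as a block leave every difference as it was. They are therefore no check of these signs. Leaving out probe sets under 6.98 is none for the hnRNP and SF3 genes, whose medians it left unchanged. All 15 fits reuse the same mice, so a kept sign is no replication. From array to array the hnRNP median varied with an SD of 0.14 in the RKO group and 0.092 in the WT group. Bulk liver RNA cannot tell fewer cells of a type from less RNA per cell.

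**Figure D1:**
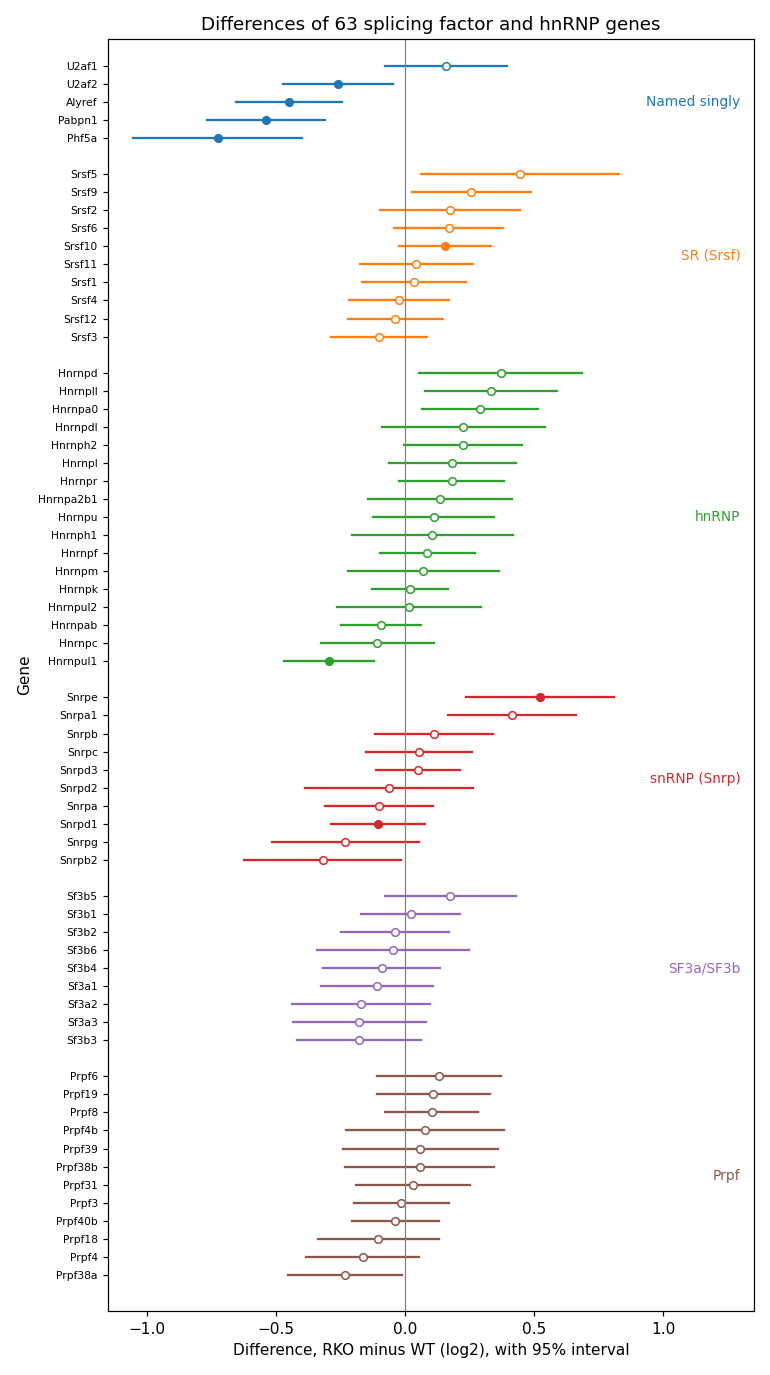
Difference in log2 expression, RKO minus WT, for each of the 63 members (rows, by family), with 95% intervals from limma and n = 4 arrays per group. Filled points mark the 8 members whose groups did not overlap: 6 lower (Phf5a at -0.73 the lowest) and 2 higher (Snrpe at 0.52 the highest).

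In 6 members every RKO array lay below every WT array: Phf5a, Pabpn1, Alyref, U2af2, Hnrnpul1 and Snrpd1. The background share for this was 2.61% of all genes. Phf5a, Pabpn1 and Alyref were taken for their low RKO values, and of the other 60 members 3 separated as lower. In 2 members, Snrpe and Srsf10, every RKO array lay above every WT array, beside 1.81% of all genes. This split depended on the scaling. With each array centred on its own median, which raised RKO 1, the array with the lowest median, 3 members (Phf5a, Pabpn1 and Alyref) separated as lower and 6 as higher, beside 1.14% and 2.6% of all genes. The 6 were Snrpe, Srsf10, Srsf9, Hnrnpa0, Hnrnpll and Snrpa1.

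Recognition of the branch point is the step that SF3b, SF3a, U2AF and the U2 snRNP proteins share. Phf5a encodes a small subunit of SF3b that helps form the pocket for the branch point adenosine. It read 11.94, 11.37, 11.20 and 11.08 on RKO arrays 1 to 4, against 12.15, 12.21, 12.04 and 12.10 on WT arrays 1 to 4. The WT arrays lay close together, and RKO 1 was nearer to them than to the other RKO arrays. The means were 11.40 ± 0.38 on the RKO arrays and 12.13 ± 0.07 on the WT arrays (SD, n = 4), a difference of -0.73 (SE 0.15) or a 0.604-fold level. Without both arrays numbered 1 the difference was -0.90.

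Its partner subunits had differences nearer to 0. The 6 SF3b genes named by symbol had differences from -0.18 to 0.17, and the 3 SF3a genes from -0.18 to -0.11. None of these 9 separated the groups, and the smallest adjusted p among them was 0.60 (limma). Sf3b1, the large scaffold of SF3b, read between 11.30 and 11.52 on the RKO arrays and between 11.23 and 11.52 on the WT arrays, a difference of 0.02 (95% interval -0.17 to 0.21). Sf3b3, another large subunit, differed by -0.18 (95% interval -0.42 to 0.06), and the small subunit Sf3b5 by 0.17 (95% interval -0.08 to 0.43). Sf3a3, part of the SF3a trimer, read 10.43 on RKO 1 and 9.89 to 9.99 on the other RKO arrays, against 10.19 to 10.26 on the WT arrays. RKO 1 thus lay above every WT array and the other 3 below, and the difference was -0.18 (SE 0.12) with all arrays and -0.30 without RKO 1. In 6 of the 9 SF3 genes RKO 1 was the highest RKO array, as it was in 30.3% of all genes. The difference between Phf5a and its partners was not tested, since Phf5a was chosen for its value.

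U2AF, which binds the polypyrimidine tract and the 3′ splice site ahead of U2, is a heterodimer of a large subunit (U2af2) and a small one (U2af1). U2af2 read 9.80, 9.48, 9.82 and 9.72 on the RKO arrays, against 9.95, 9.88, 10.01 and 10.01 on the WT arrays, a difference of -0.26 (SE 0.10). The groups did not overlap, but RKO 3 and WT 2 lay only a little apart. U2af1 read 9.42, 9.39, 9.62 and 9.83 on the RKO arrays, against 9.37, 9.45, 9.45 and 9.35 on the WT arrays. Its groups overlapped, and the difference of 0.16 (SE 0.11) had the opposite sign. The second U2af1 probe set gave 0.14 (SE 0.11). U2af2 passed in none of the 15 alternative fits (lowest limma adjusted p = 0.127).

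Snrpa1 and Snrpb2 encode U2-A′ and U2-B″, which bind a stem-loop of U2 RNA together. Snrpa1 read 8.35, 8.67, 8.86 and 8.80 on the RKO arrays, against 8.37, 8.20, 8.26 and 8.18 on the WT arrays. RKO 1 lay among the WT arrays, and the other 3 above all of them. Snrpb2 read 10.83, 10.31, 10.35 and 10.23 on the RKO arrays, against 10.97, 10.79, 10.49 and 10.74 on the WT arrays. Here RKO 1 lay again among the WT arrays, and the other 3 below all of them. The partners thus differed in opposite directions, Snrpa1 by 0.41 (SE 0.11) and Snrpb2 by -0.32 (SE 0.14). Without RKO 1 the values were 0.52 and -0.46, and both passed (limma adjusted p = 0.0113 and 0.0384). With all arrays neither did (limma adjusted p = 0.225 and 0.433).

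**Figure D2:**
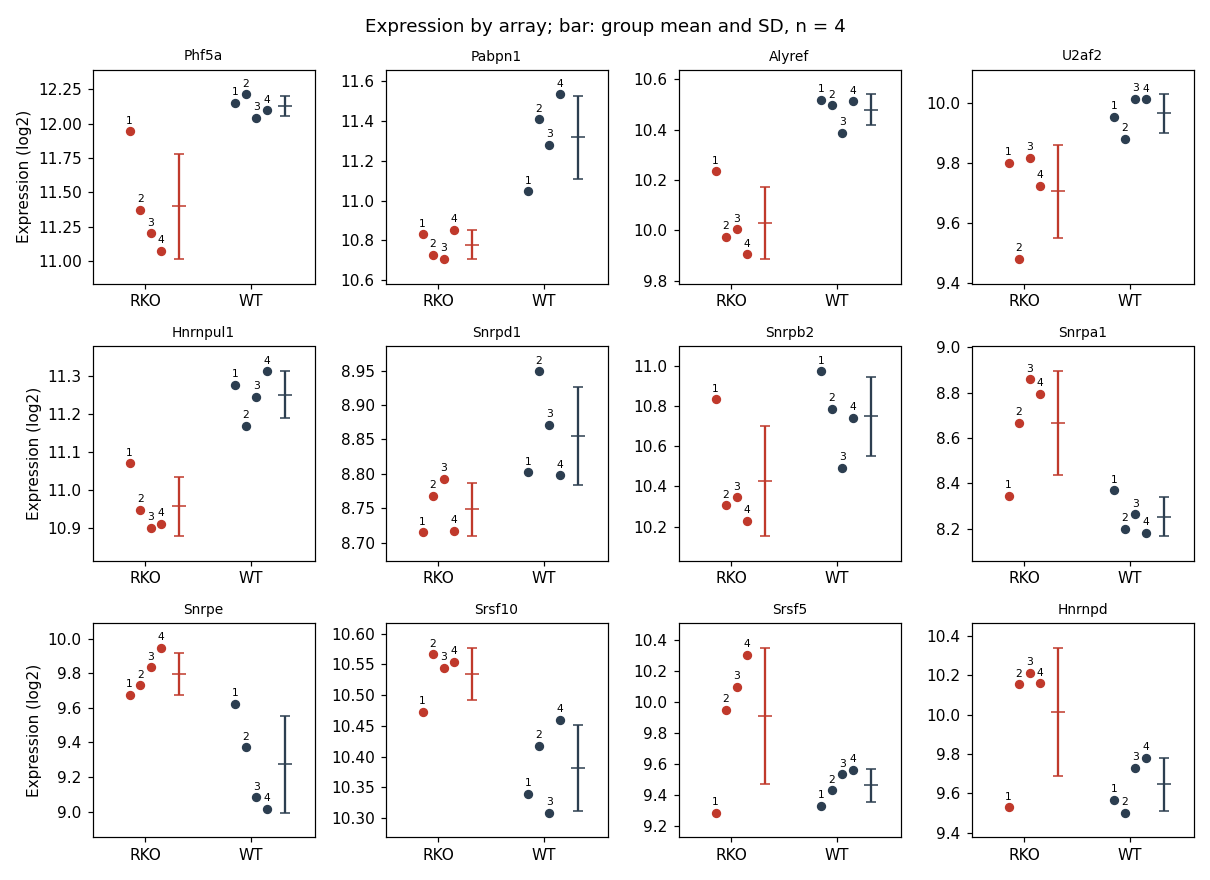
Log2 expression of 12 members on each array (numbers are the replicate numbers), RKO left and WT right, with the group mean and SD beside the points (n = 4). RKO 1 lies among or next to the WT arrays in Phf5a, Snrpb2, Snrpa1, Srsf5 and Hnrnpd, and within the range of the other RKO arrays in Pabpn1.

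Sm proteins form the ring around the snRNAs, and 6 of them were measured, with differences from -0.23 to 0.52. Snrpe, which encodes SmE, read 9.68, 9.73, 9.84 and 9.95 on the RKO arrays, against 9.62, 9.37, 9.08 and 9.02 on the WT arrays. All RKO arrays lay above all WT arrays, though RKO 1 lay only just above WT 1. The means were 9.80 ± 0.12 on the RKO arrays and 9.27 ± 0.28 on the WT arrays (SD, n = 4). The difference of 0.52 (SE 0.13) was the highest among the members, a 1.44-fold level (limma adjusted p = 0.192). It was 0.68 without both arrays numbered 1. The 250 bases before the Snrpe start (RefSeq, GRCm38.p6, chr1:133610281-133610530, minus strand) are shown because the gene had the highest difference, with capitals at matches to the motifs described further on. They hold 2 matches, both to CGGAAG.
Snrpe: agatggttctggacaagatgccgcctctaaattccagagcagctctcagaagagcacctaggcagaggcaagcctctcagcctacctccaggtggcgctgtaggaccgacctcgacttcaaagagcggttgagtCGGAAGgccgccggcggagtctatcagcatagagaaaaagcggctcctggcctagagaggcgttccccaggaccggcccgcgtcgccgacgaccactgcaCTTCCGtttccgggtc

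Snrpd1, the gene of SmD1, had the smallest difference of the members whose groups did not overlap. It read 8.72, 8.77, 8.79 and 8.72 on the RKO arrays, against 8.80, 8.95, 8.87 and 8.80 on the WT arrays. The groups did not overlap but came within 0.01 of each other, and the difference was -0.11 (SE 0.08). Snrpg, which encodes SmG and lies next to SmE in the ring, differed by -0.23 (SE 0.13), and its other probe set by -0.30 (SE 0.16). Snrpd3 differed by 0.05 (95% interval -0.11 to 0.21) and Snrpb by 0.11 (95% interval -0.12 to 0.34). Snrpd2 had 5 probe sets, which gave from -0.065 to 0.15, so its direction is not settled. Snrpa and Snrpc, proteins of the U1 snRNP that recognises the 5′ splice site, differed by -0.10 (SE 0.10) and 0.05 (SE 0.09).

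Of the SR proteins Srsf5 had the largest difference. In rat, Srsf5 was first described as an insulin-responsive SR protein of regenerating liver. It read 9.28, 9.95, 10.09 and 10.30 on the RKO arrays, against 9.33, 9.43, 9.53 and 9.56 on the WT arrays. RKO 1 was the lowest of all 8 arrays, and the other RKO arrays lay above every WT array. The means were 9.91 ± 0.44 on the RKO arrays and 9.46 ± 0.11 on the WT arrays (SD, n = 4), a difference of 0.44 (SE 0.18). A second probe set of Srsf5 gave 0.46 (SE 0.18). With all 8 arrays it did not pass (limma adjusted p = 0.384). Leaving RKO 1 out gave 0.65 (limma adjusted p = 0.00847), and leaving WT 1 out as well gave 0.61 (limma adjusted p = 0.00456). The 250 bases before its start (RefSeq, GRCm38.p6, chr12:80945249-80945498, plus strand) are shown because it led the SR family. They hold 3 matches to GGGCGG, 2 to CGGAAG and 1 to TGACG.
Srsf5: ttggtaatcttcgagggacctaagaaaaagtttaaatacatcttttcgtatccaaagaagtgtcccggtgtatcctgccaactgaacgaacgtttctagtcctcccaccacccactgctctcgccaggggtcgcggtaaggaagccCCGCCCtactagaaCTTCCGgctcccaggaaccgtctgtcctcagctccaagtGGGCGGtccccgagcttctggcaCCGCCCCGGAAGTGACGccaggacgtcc

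The other SR proteins had smaller differences. Srsf10, which can act as a splicing repressor when dephosphorylated, read 10.47, 10.57, 10.54 and 10.55 on the RKO arrays, against 10.34, 10.42, 10.31 and 10.46 on the WT arrays. The groups did not overlap, with RKO 1 just above WT 4, and the difference was 0.15 (SE 0.08). Its dimmer probe set gave 0.23 (SE 0.12). Srsf9 read 9.24, 9.43, 9.67 and 9.41 on the RKO arrays, against 9.12, 9.10, 9.33 and 9.17 on the WT arrays, so that RKO 1 lay below WT 3. That difference was 0.26 (SE 0.11). Srsf2, another classical SR protein, differed by 0.17 (SE 0.12). Srsf3, the smallest classical SR protein, gave -0.10 and -0.082 with its brighter probe sets and 0.28 with the dimmest, so no direction is settled. The remaining 5 (Srsf1, Srsf4, Srsf6, Srsf11 and Srsf12) lay between -0.04 and 0.17. Srsf12 was the 1 member whose mean lay below the median of all probe sets, 6.98, and the deposited table holds no detection calls.

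Among the hnRNPs the highest difference was that of Hnrnpd, which encodes AUF1, a protein that binds AU-rich elements and affects mRNA decay. It read 9.53, 10.16, 10.21 and 10.16 on the RKO arrays, against 9.57, 9.50, 9.73 and 9.78 on the WT arrays. RKO 1 lay within the WT range, far from the other 3 RKO arrays, which were above all WT arrays. The difference was 0.37 (SE 0.15), and 0.53 without RKO 1. Its paralogue Hnrnpdl read 9.20 on RKO 1 and 9.74 to 9.99 on the other RKO arrays, against 9.39 to 9.52 on the WT arrays, a difference of 0.23 (SE 0.15). Hnrnpll, known in mouse T cells as a regulator of Ptprc splicing, read 8.77, 8.97, 9.28 and 9.23 on the RKO arrays, against 8.70, 8.63, 8.79 and 8.81 on the WT arrays. RKO 1 lay inside the WT range, and the difference was 0.33 (SE 0.12). A part of lymphocytes in this difference was not tested.

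Hnrnpul1, a relative of the scaffold protein encoded by Hnrnpu, went the other way. It read 11.07, 10.95, 10.90 and 10.91 on the RKO arrays, against 11.28, 11.17, 11.25 and 11.31 on the WT arrays. The groups did not overlap and were tight, and RKO 1 lay closest to the WT arrays. The difference was -0.29 (SE 0.08), with single arrays left out from -0.33 to -0.27. Its relatives Hnrnpul2 and Hnrnpu differed by 0.02 (SE 0.13) and 0.11 (SE 0.11). Hnrnpk, a poly(C)-binding protein, differed by 0.02 (95% interval -0.13 to 0.17) and lay between 0.0081 and 0.060 in its 3 probe sets.

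The other 13 hnRNP genes, Hnrnpdl, Hnrnpul2 and Hnrnpu among them, had differences from -0.11 to 0.29, with 11 higher and 2 lower (Hnrnpc and Hnrnpab). Hnrnpa0 was the highest of these at 0.29 (SE 0.10). In 10 of the 17 hnRNP genes RKO 1 was the lowest RKO array, and in 8 of the 10 Srsf genes, beside 31.9% of all genes. WT 4 was the highest WT array in 14 of the 17 hnRNP genes, beside 21.1% of all genes. The median hnRNP value lay at -0.12 from the gene mean on RKO 1 and from 0.034 to 0.17 on the other RKO arrays, against -0.15, -0.14, -0.030 and 0.042 on WT arrays 1 to 4. Both groups thus held arrays with low hnRNP values. The same measure for SF3 genes was 0.14 on RKO 1 and from -0.094 to -0.082 on the other RKO arrays, against -0.033, -0.037, 0.15 and 0.12 on WT arrays 1 to 4. The median of all genes stayed between -0.019 and 0.048 on every array.

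**Figure D3:**
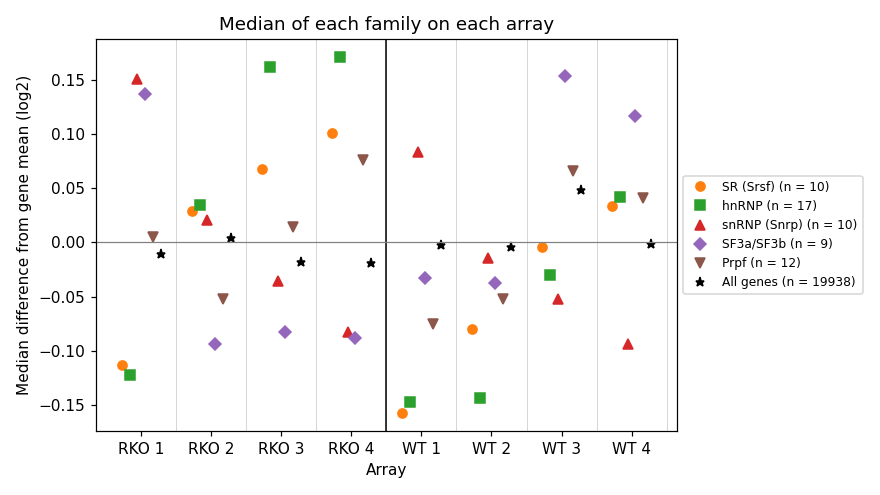
Median over each family of the difference between a gene's value on an array and its mean over all 8 arrays (log2), for RKO arrays left and WT arrays right. The hnRNP and Srsf medians are low on RKO 1, WT 1 and WT 2 and the SF3 median is high on RKO 1, WT 3 and WT 4, while the median of all genes stays near 0.

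The Prpf genes, mostly proteins of the U4/U6.U5 tri-snRNP and of spliceosome activation, had no member whose groups were apart. Prpf38a, needed for spliceosome activation, read 8.95, 8.59, 8.58 and 8.71 on the RKO arrays, against 9.02, 8.98, 8.86 and 8.91 on the WT arrays. RKO 1 lay inside the WT range and the other 3 below it, and the difference was -0.23 (SE 0.10). Prpf4, a U4/U6 protein, differed by -0.16 (SE 0.10), and Prpf3, which binds it, by -0.01 (SE 0.08). Prpf6, which bridges U5 and U4/U6, differed by 0.13 (SE 0.11), and Prpf8, the protein at the catalytic centre, by 0.10 (95% interval -0.08 to 0.28). The ubiquitin ligase gene Prpf19 differed by 0.11 (SE 0.10).

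**Figure D4:**
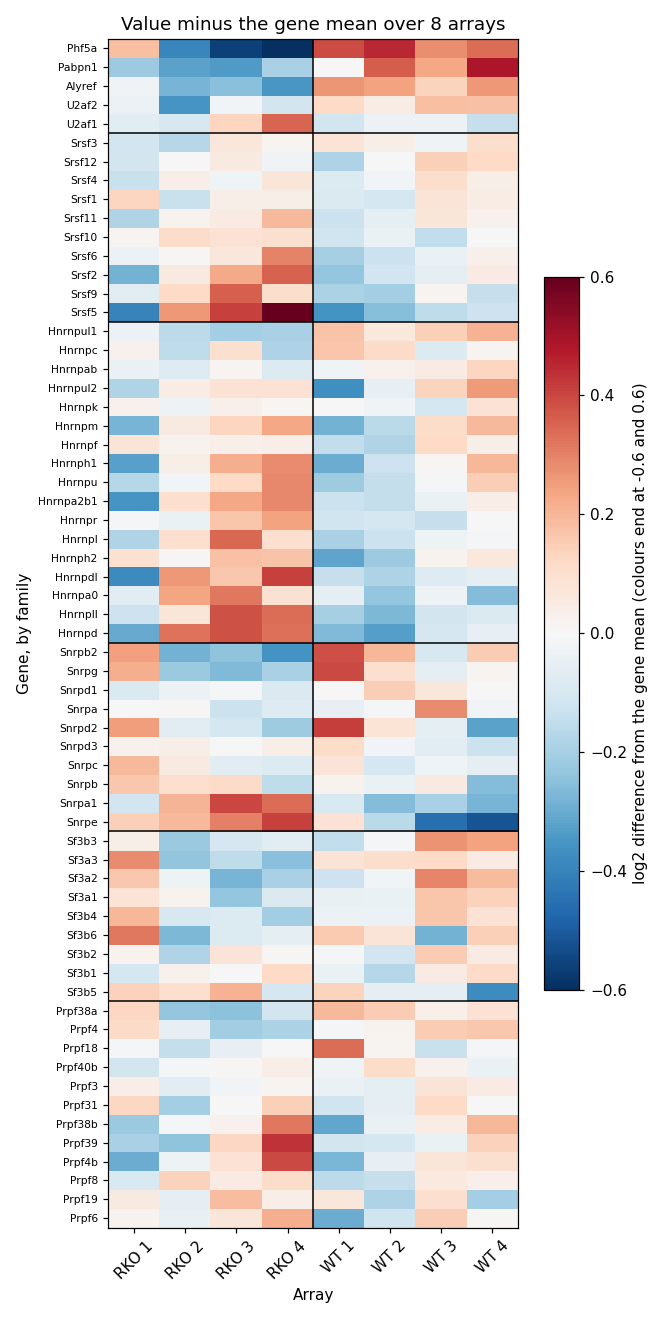
Log2 value of each of the 63 members (rows, by family) minus its mean over the 8 arrays, with RKO arrays left and WT arrays right of the vertical line. The top rows Phf5a, Pabpn1 and Alyref are lower on the RKO arrays, and RKO 1 resembles the WT columns in Srsf5, Hnrnpd, Snrpb2 and Snrpa1.

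Pabpn1 and Alyref act after splicing. Pabpn1 encodes the nuclear poly(A)-binding protein, which makes poly(A) polymerase processive. It read 10.83, 10.73, 10.71 and 10.85 on the RKO arrays, against 11.05, 11.41, 11.28 and 11.53 on the WT arrays. Here the 4 RKO arrays lay close together, RKO 1 included, and the WT arrays were spread. The means were 10.78 ± 0.07 on the RKO arrays and 11.32 ± 0.21 on the WT arrays (SD, n = 4), a difference of -0.54 (SE 0.11) or a 0.688-fold level. Alyref encodes the adaptor of the TREX complex that hands spliced mRNA to the export receptor. It read 10.23, 9.97, 10.00 and 9.90 on the RKO arrays, against 10.52, 10.50, 10.39 and 10.51 on the WT arrays. All RKO arrays lay lower, RKO 1 the least so. The difference was -0.45 (SE 0.09), a 0.732-fold level. The 250 bases before their starts (RefSeq, GRCm38.p6, chr14:54893893-54894142, plus strand, for Pabpn1 and chr11:120598366-120598615, minus strand, for Alyref) are shown. Pabpn1 and Alyref were the members with a promoter entry that separated as lower with and without median centring. Both were taken for low RKO values, so this choice is no finding. Srsf10, which separated as higher both ways, is not shown. Pabpn1 holds 2 matches to CCAAT and 1 to TGACG, and no match to CGGAAG. Alyref holds 3 matches to CGGAAG and 2 to TGACG, with 1 match to CCAAT, 1 to GGGCGG and 1 to TATAAA.
Pabpn1: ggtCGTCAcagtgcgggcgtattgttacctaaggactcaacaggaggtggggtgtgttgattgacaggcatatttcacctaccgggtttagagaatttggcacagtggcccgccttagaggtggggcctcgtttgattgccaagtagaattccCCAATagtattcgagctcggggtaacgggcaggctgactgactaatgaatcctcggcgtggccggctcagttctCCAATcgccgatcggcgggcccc
Alyref: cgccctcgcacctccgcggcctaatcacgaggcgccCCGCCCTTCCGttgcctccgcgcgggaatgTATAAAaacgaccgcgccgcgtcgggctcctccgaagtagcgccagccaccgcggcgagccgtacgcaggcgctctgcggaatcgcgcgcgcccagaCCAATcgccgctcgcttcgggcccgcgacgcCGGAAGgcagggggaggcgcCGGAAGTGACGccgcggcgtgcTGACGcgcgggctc

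Which members passed depended on how RKO 1 was treated. With array weights, which limma set lowest for RKO 1 (0.467) and highest for WT 2 (2.31), 9 members passed, beside 3.55% of all genes. Phf5a, Alyref, Pabpn1 and Hnrnpul1 were lower, beside 2.23% of all genes. Snrpa1, Snrpe, Hnrnpll, Srsf5 and Hnrnpd were higher, beside 1.31% of all genes. Without RKO 1 the same 9 and also Hnrnpdl (higher) and Snrpb2 (lower) passed. These were 6 higher and 5 lower, beside 1.1% and 3.3% of all genes, and together 11 beside 4.4%. Without both arrays numbered 1, these 11 and Hnrnpa0 (higher) passed. These were 7 higher and 5 lower, beside 2.39% and 5.08% of all genes, and together 12 beside 7.47%. Without WT 1 alone, Snrpe passed as higher and Pabpn1 as lower, beside 0.231% and 0.0652% of all genes (0.296% either way). Every lower and combined count here holds 1 or more of Phf5a, Alyref and Pabpn1, which the rule took for low RKO values. Nothing is therefore read from setting these counts beside the shares. An array far from the rest of its group gets a low weight, and RKO 1 was known to lie far off, so these calls are not separate tests.

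Other genes of the pathway were read from 4 lists written from the genes' known roles. Together they held 135 measured genes outside the rule. Of these, 66 were higher and 69 lower, beside 43.1% higher over all genes. Their median was -0.0048, beside -0.020 over all genes. None passed with all 8 arrays (limma, 0.0% of all genes), and 8 higher and 14 lower genes had an unadjusted p under 0.05 (16.3% together, beside 10.5% of all genes). Of 50 other spliceosome genes, 26 were higher and 24 lower. Usp39, a tri-snRNP protein, read 11.32, 10.58, 10.78 and 10.76 on the RKO arrays, against 11.33, 11.42, 11.45 and 11.41 on the WT arrays. RKO 1 was again close to the WT arrays, and the difference was -0.54 (SE 0.13, limma adjusted p = 0.184). Htatsf1, a U2-associated factor, differed by 0.31 (SE 0.10, limma adjusted p = 0.296).

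Of 43 splicing regulators and SR kinases, 21 were higher and 22 lower. Clk3, a nuclear kinase of SR proteins, read 10.17, 10.17, 10.13 and 10.22 on the RKO arrays, against 10.42, 10.46, 10.40 and 10.50 on the WT arrays. Both groups were tight and did not overlap, and RKO 1 lay with its own group, for a difference of -0.27 (SE 0.08, limma adjusted p = 0.249). Srpk1, which phosphorylates SR proteins in the cytoplasm, differed by -0.38 (SE 0.12, limma adjusted p = 0.274), with RKO 1 at 10.51 inside the WT range.

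Of 22 exon junction complex and export genes, 10 were higher and 12 lower. Thoc3, a TREX subunit like the product of Alyref, read 11.53, 10.95, 11.04 and 10.79 on the RKO arrays, against 11.61, 11.72, 11.63 and 11.57 on the WT arrays. The groups did not overlap, with RKO 1 near the WT arrays, and the difference was -0.55 (SE 0.13, limma adjusted p = 0.163). Ncbp1, the large cap-binding subunit, differed by -0.53 (SE 0.13, limma adjusted p = 0.188). Of 20 cleavage and polyadenylation genes, 9 were higher and 11 lower. Cpsf3, the endonuclease, differed by -0.26 (SE 0.10, limma adjusted p = 0.376) and Cstf2t, a paralogue of Cstf2, by 0.26 (SE 0.10, limma adjusted p = 0.370).

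Promoter sequence was not used by the rule. RefSeq promoters (GRCm38.p6) were found for 54 of the 63 members, and the 250 bases before the first listed start of each gene were searched on both strands for 7 motifs, with overlaps between motifs allowed. CGGAAG, the core bound by many ETS factors, occurred in 29 members (53.7%), beside 18.2% of the 15563 array genes with an entry. TGACG, the CREB half-site, occurred in 24 members (44.4%), beside 21.6%, and GGGCGG, the GC box, in 36 (66.7%), beside 46.1%. CCAAT occurred in 26 (48.1%), beside 35.5%. The E-box CACGTG was found in 4 members (7.41%), beside 7.04% of the array genes, and TATAAA in 6 (11.1%), beside 11.2%. The palindromic NRF1 motif was found in 0 members and in 1.17% of the array genes. The median GC share of the windows was 60.0%, beside 56.4%, and the median count of CG pairs was 19, beside 11. The array genes include genes of low signal, while 62 of the 63 members had a mean above the median over all genes. Array genes of like level or like count of CG pairs were not compared. The shares are therefore not read as particular to splicing genes. A start on the opposite strand lay within 1000 bases upstream in 16 of the 54 members (29.6%), beside 13.4% of the array genes. Matches are letters in a window and say nothing of binding. Phf5a, U2af2, Hnrnpll, Hnrnpul2, Prpf18, Sf3b4, Sf3b5, Snrpb and Snrpd1 had no entry.

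Several members had more than 1 probe set, and processed copies of such genes exist in the genome, so a probe set may read more than 1 locus. Of 11 such genes, 8 had differences of 1 sign over all their probe sets, and Sf3b4, Snrpd2 and Srsf3 did not. Sf3b4, an SF3b subunit, gave -0.091 (SE 0.10) with its brighter probe set and 0.12 (SE 0.10) with the other. The positions of the probes were not examined.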

How the data were processed

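The authors' deposited table holds 1 log2 value per probe set and array for 35556 probe sets. Per the submitters' processing notes the tools were Affymetrix Expression Console, RMA and Partek, whose roles are not stated. The log base was read from the range of the values. RMA makes arrays alike, which hides a shift shared by most genes and shrinks differences at low signal. No genome build of the array's design was used. Array medians lay between 6.90 and 7.03, and 4 arrays per group limit the precision. The design gives 4 mice per group, so p-values measure the spread between mice and arrays together.

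Of the probe sets, 21789 had 1 gene symbol (19938 genes, updated by Entrez identifier), 1621 had several and 12146 had none. A gene was read from its probe set with the highest mean. limma 3.58.1 in R 4.3.3 (lmFit, eBayes with trend, two-sided) compared RKO with WT, with Benjamini-Hochberg adjustment over the 21789 probe sets and a threshold of 0.05. The fit was also run on simulated arrays, drawn independently with the pooled spread within groups. No simulated array stood apart as RKO 1 did, so that run says nothing of calls that depend on RKO 1. No other value columns were in the table.

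The members, the lists and the alternatives were chosen with earlier results of these data known. Named with values were the 5 genes taken singly, in each family the 3 with the largest absolute difference and the 1 with the highest mean, every member whose groups did not overlap, members whose probe sets disagreed in sign, and the pair with the smallest p in each other list. Hnrnpa0, Hnrnpab, Hnrnpc, Hnrnpdl, Hnrnpu, Hnrnpul2, Prpf3, Prpf19, Snrpa, Snrpb, Snrpc and Snrpg were named after their values were seen. Protein features were not analysed here. The 15 alternatives were array weights, no trend, the replicate number as a block, the mean of all probe sets of a gene, median centring, probe sets under 6.98 left out, each array left out in turn, and both arrays numbered 1 left out. Same-numbered RKO and WT arrays had correlations of their deviations from the group means of 0.0036, -0.095, -0.063 and 0.21, and no pairing was used. No 2 arrays shared more than 18 identical values.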

Additional observations from a re-analysis of the deposited data

Results flagged for a closer look

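In 2 of 58 groups of 4 arrays examined for the named members, 1 array lay far from the others, and chance flags about 1 in 20 groups. Hnrnpd read 9.53 on RKO 1, against 10.16 to 10.21 on the other 3 RKO arrays. Alyref read 10.39 on WT 3, against 10.50 to 10.52 on the other 3 WT arrays.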

How the results depend on the processing

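Counts of members past the adjusted threshold were 0 higher and 0 lower with all arrays at equal weight, and stayed so without a trend, with the replicate number as a block (0 and 0), with the mean of all probe sets, with median centring and with dim probe sets left out. Array weights gave 5 higher and 4 lower. Leaving out RKO 1 and WT 1 together, which was decided with the data in view, gave 7 and 5. With single arrays left out they ranged from 0 to 6 higher and from 0 to 5 lower. The arrays behind this were RKO 1 (6 and 5) and WT 1 (1 and 1), with 0 for each of the other 6. Members whose groups did not overlap numbered 2 higher and 6 lower, 6 and 3 with median centring, 13 and 15 without both arrays numbered 1 (beside 9.15% and 15.6% of all genes), and 2 to 12 higher and 6 to 12 lower when 1 array was left out. Both counts of 12 came without RKO 1 (beside 5.74% and 11.1% of all genes), and 4 were higher without WT 1 and without WT 4. Fewer arrays make such separation easier by construction. Phf5a, Pabpn1 and Alyref, chosen for low RKO values, are among the lower members in each of these separation counts. They also add to the lower counts past the threshold. The median difference of 0.034 ranged from -0.012 (without RKO 4) to 0.056 with single arrays left out.

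In the other lists 0 genes passed with all arrays. With array weights, 1 higher and 2 lower spliceosome genes passed, 1 lower regulator and 2 lower export genes, beside 1.31% higher and 2.23% lower of all genes. Without both arrays numbered 1 these counts were 1 and 3, 2 and 2, and 1 and 3, and 2 lower cleavage genes, beside 2.39% and 5.08% of all genes. With single arrays left out they ranged from 0 to 1 higher and 0 to 2 lower (spliceosome), 0 to 1 each way (regulators), 0 to 3 lower (export) and 0 to 2 lower (cleavage). Every count above 0 came without RKO 1, beside 1.1% higher and 3.3% lower of all genes. Among the 29 members named by rule, the signs of 5 small differences reversed in some alternative. Signs of members not named were followed only as family counts. Without RKO 4, 3 of 12 Prpf genes were higher, and without WT 1, 12 of 17 hnRNP genes. Hnrnpk ranged from -0.012 to 0.051, Sf3b1 from -0.031 to 0.065 (also -0.014 without RKO 4) and Snrpd2 from -0.18 to 0.065 with single arrays left out. With the mean of all probe sets Sf3b4 gave 0.012, Snrpd2 0.019 and Srsf3 0.032. The causes were not tested. The separation counts have no value under array weights, trend or block, and the dim filter kept 62 of 63 members.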
